A study of Mus musculus with 6 samples.

Results

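Regulatory T cells (Tregs) restrain immune responses and are defined by the transcription factor Foxp3. The 9 genes described here, Slc37a2, Prdm16, Muc1, Miat, Zan, Dmd, Adamts6, She and Ppm1l, are not among those by which Tregs are usually recognised, and were picked because their values separated the arrays of 2 Treg populations. They were chosen from that very contrast, so their differences are given as a description, with no test. On the arrays 20 probe sets carried the symbol of 1 of these genes alone, out of 45037 probe sets and, in genes, 9 of 18193. A probe set is the group of short probes that reads 1 stretch of a transcript, and a gene can have several. The probe set with the highest mean over the arrays is called the leading one.

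All mice were female NOD, the strain prone to autoimmune diabetes, and carried the BDC2.5 T cell receptor transgene, specific for an islet antigen, and the Foxp3GFP reporter. Treated mice were RAG1o/o, unable to rearrange receptor genes, and received 37.5 µg of the anti-CD3 antibody KT3 intravenously once a day for 5 days, starting at 17 days of age. Untreated mice were RAG1+/o and received no antibody. Splenic CD4+ GFP+ cells, sorted as negative for B220, CD8a and CD11b/c, were taken at 28 or 29 days of age. In treated mice this was 11 or 12 days after treatment as the labels count it. By the ages that count runs from the first injection, not the last. Each of the 3 treated and 3 untreated arrays held 1 mouse. Antibody and RAG1 genotype differed together and cannot be told apart. The labels do not name the promoter of the transgene.

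The genes fall into 3 kinds by what their products do. In the nucleus act Prdm16, a zinc finger protein of the PR domain family known for brown fat and blood stem cells, and Miat, a long noncoding RNA that stays in the nucleus and binds splicing factors. At the cell surface, beneath it or in the matrix lie Muc1, a heavily glycosylated transmembrane mucin of epithelia, Zan (zonadhesin), a sperm protein that binds the coat of the egg, Adamts6, a secreted metalloprotease, and Dmd (dystrophin), which sits beneath the membrane and ties actin to a membrane complex in muscle. Inside the cell work Slc37a2, a sugar phosphate transporter of the endoplasmic reticulum that is abundant in macrophages, Ppm1l, a PP2C family phosphatase of the same membrane, and She, an SH2 adaptor that binds phosphotyrosine.

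Promoter windows, 250 bases before to 50 after a start site, were taken from RefSeq (GRCm38.p6) and matched 7 of the 9 genes by symbol, with 8 windows because Dmd had 2. Adamts6 and Ppm1l were not matched. The 4 windows shown belong to Slc37a2 and Muc1, both with higher values in treated Tregs, and to She and Dmd, both with lower ones, and Muc1 and She lie 602 kb apart on chromosome 3 with differences in opposite directions. Capitals mark matches to any of the motifs named after the sequences, written 5′ to 3′ on the strand of the gene. The Slc37a2 window is chr9:37255689-37255988 on the minus strand, that of Muc1 chr3:89228806-89229105 on the plus strand, that of She chr3:89831120-89831419 on the plus strand, and that of Dmd chrX:82948620-82948919 on the plus strand.
Slc37a2: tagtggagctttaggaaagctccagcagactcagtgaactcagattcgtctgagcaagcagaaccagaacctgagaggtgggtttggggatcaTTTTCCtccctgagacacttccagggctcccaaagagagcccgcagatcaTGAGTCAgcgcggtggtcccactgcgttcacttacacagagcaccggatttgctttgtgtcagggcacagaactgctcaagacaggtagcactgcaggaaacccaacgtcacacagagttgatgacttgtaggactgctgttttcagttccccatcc
Muc1: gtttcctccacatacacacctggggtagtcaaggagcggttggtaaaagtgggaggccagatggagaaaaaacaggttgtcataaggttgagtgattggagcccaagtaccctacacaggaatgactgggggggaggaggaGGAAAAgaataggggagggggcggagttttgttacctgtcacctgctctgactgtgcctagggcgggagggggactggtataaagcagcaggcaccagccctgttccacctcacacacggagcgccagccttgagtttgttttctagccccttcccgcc
She: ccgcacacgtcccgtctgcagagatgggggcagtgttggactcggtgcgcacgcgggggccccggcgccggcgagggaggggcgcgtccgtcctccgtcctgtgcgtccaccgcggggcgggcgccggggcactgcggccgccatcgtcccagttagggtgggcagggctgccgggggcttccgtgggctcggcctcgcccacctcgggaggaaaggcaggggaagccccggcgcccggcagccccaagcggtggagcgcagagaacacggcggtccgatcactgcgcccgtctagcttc
Dmd: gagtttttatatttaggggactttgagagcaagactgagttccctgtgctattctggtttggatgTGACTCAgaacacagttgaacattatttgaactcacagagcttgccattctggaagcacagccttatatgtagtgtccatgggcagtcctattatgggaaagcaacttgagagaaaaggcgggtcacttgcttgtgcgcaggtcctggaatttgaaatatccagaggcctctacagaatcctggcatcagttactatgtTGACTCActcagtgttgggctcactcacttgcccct

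Both strands of each window were searched for 7 motifs, which do not contain one another. The NFAT letters GGAAAA stood in 3 of the 8 windows, those of Slc37a2, Muc1 and Zan, and in 23.36% of all 32851 windows in the table. In Slc37a2 the match began 157 bases before the start site, read on the opposite strand, and in Muc1 109 bases before it. The AP-1 letters TGANTCA stood in 2 windows, once in Slc37a2, 107 bases before the start, and in the Dmd window shown, 185 bases before the start and at base 15 after it; 7.81% of all windows held them. Forkhead TGTTTAC (3.65% of all windows), STAT TTCNNNGAA (8.3%), ETS CCGGAAG (8.86%), CRE TGACGTCA (1.79%) and the E-box CACGTG (7.15%) were in none of the 8. The She window had a GC content of 75.7% and 39 CpG pairs, against 55.7% and 6 for Muc1 and 52.7% and 7 for Slc37a2. The Dmd window shown had 45.7% and 2, and the other Dmd window 62.7% and 14. The median GC content of all windows was 52.7%. These matches describe letters in the reference and say nothing of binding.

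Array medians lay between 85.3 and 92.4 on the linear scale. The sorted cells carried T cell and Treg transcripts on every array: Foxp3 ranged from 11.43 to 12.44 in treated and from 9.95 to 11.07 in untreated Tregs on the log2 scale, without overlap. Over all arrays Cd3e ranged from 11.62 to 12.16, Cd4 from 9.10 to 10.41 and Il2ra from 9.53 to 10.61. Of 10 T cell and Treg markers 9 were above 0 in difference, with a median of +0.41 and 0 called by limma at an adjusted p of 0.05, and their part in the differences below was not tested. Untreated replicate 3 stood apart from untreated replicates 1 and 2. The mean of 17 B cell markers was 9.69 and 9.59 in untreated replicates 1 and 2 but 7.27 in replicate 3, near the treated values of 6.87 to 7.04. The mean of 9 neutrophil markers was 6.53 in untreated replicate 3 and 10.66 to 12.07 on the other arrays. That of 24 macrophage, monocyte and dendritic cell markers was 6.85 against 8.28 to 9.45. The neutrophil means of those other arrays lay near the means of the T cell and Treg list, 10.6 to 12.02 over all arrays. The cells had been sorted as negative for CD11b/c. Of the B cell markers 16 of 17 were below 0 in difference, and of 8 plasma cell markers all 8, and no B cell marker lay below the array median on every array. The part of B cell transcripts in the lower values of Adamts6, Dmd, Ppm1l and She was not tested. The smallest array weight that limma estimated was that of treated replicate 2 (0.242). Each difference of a leading probe set is also given without untreated replicate 3. That array had the lowest neutrophil and macrophage means, so leaving it out does not mark it as faulty. From the values of such bulk samples alone, fewer cells of a type and less RNA per cell cannot be told apart. For B and plasma cells the genotype also bears on this, since RAG1o/o treated mice could not rearrange receptor genes, those of B cells included.

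**Figure D1:**
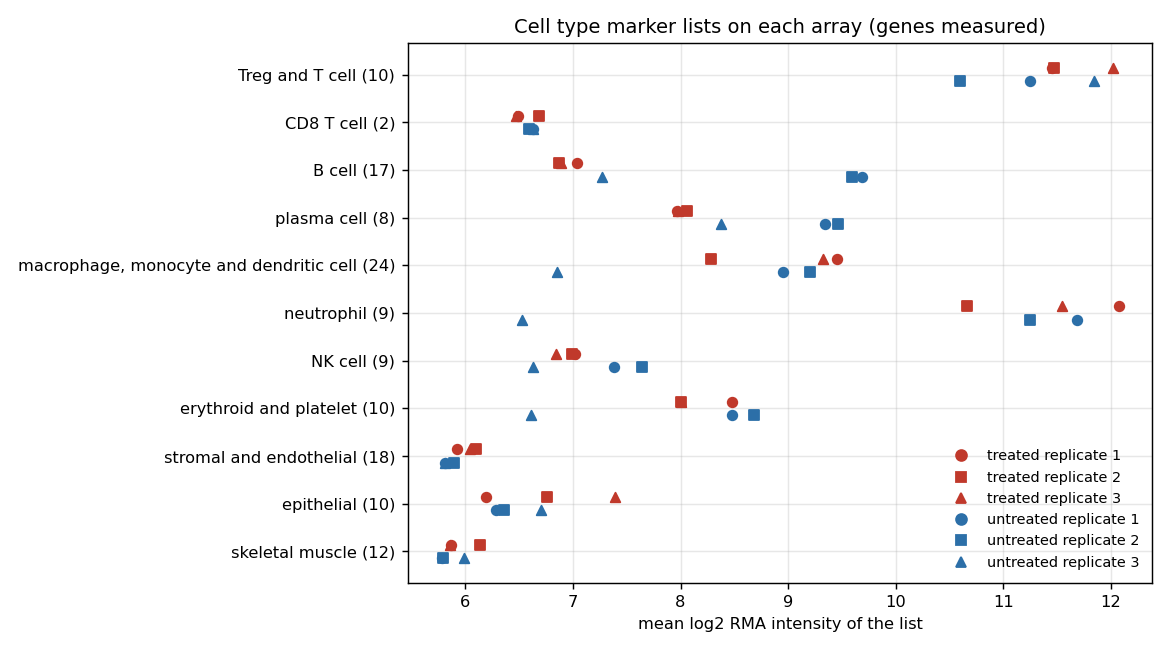
Mean log2 RMA intensity (horizontal axis) of each cell type marker list, with the number of genes measured in brackets, on the 3 treated (red) and 3 untreated (blue) arrays, 1 symbol shape per replicate number. Untreated replicate 3, the blue triangle, is the lowest array in the neutrophil list at 6.53 and in the macrophage list at 6.85.

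Over all 45037 probe sets, limma with Benjamini-Hochberg adjustment called 0 higher and 0 lower in treated Tregs at an adjusted p of 0.05, a share of 0%. Without adjustment, p was under 0.05 for 687 higher (1.53%) and 1350 lower ones (3%). These counts moved with single mice, to 324 and 750 without untreated replicate 2 and to 1081 and 1775 without treated replicate 1. No other tool was run. All 9 leading probe sets had groups that did not overlap, 5 higher and 4 lower in treated Tregs, as their choice fixed. Groups did not overlap in 10.2% of all probe sets, 5.14% higher and 5.02% lower. Of the 11 other probe sets of these genes, 4 did not overlap and 7 did. The genes are thus separated by their leading probe sets rather than by every probe set, and the rest of the description keeps probe sets apart. Differences of at least 1 on the log2 scale were found in 10 of the 20 probe sets and in 1.34% of all. The gap between the nearest treated and untreated array ran from 0.78 to 1.49 over the leading probe sets. By signal, which reflects how a probe set hybridises as well as how much transcript there is, 8 of the 9 lay above the median of all probe sets, and Dmd lay at the percentile 31.0.

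**Figure D2:**
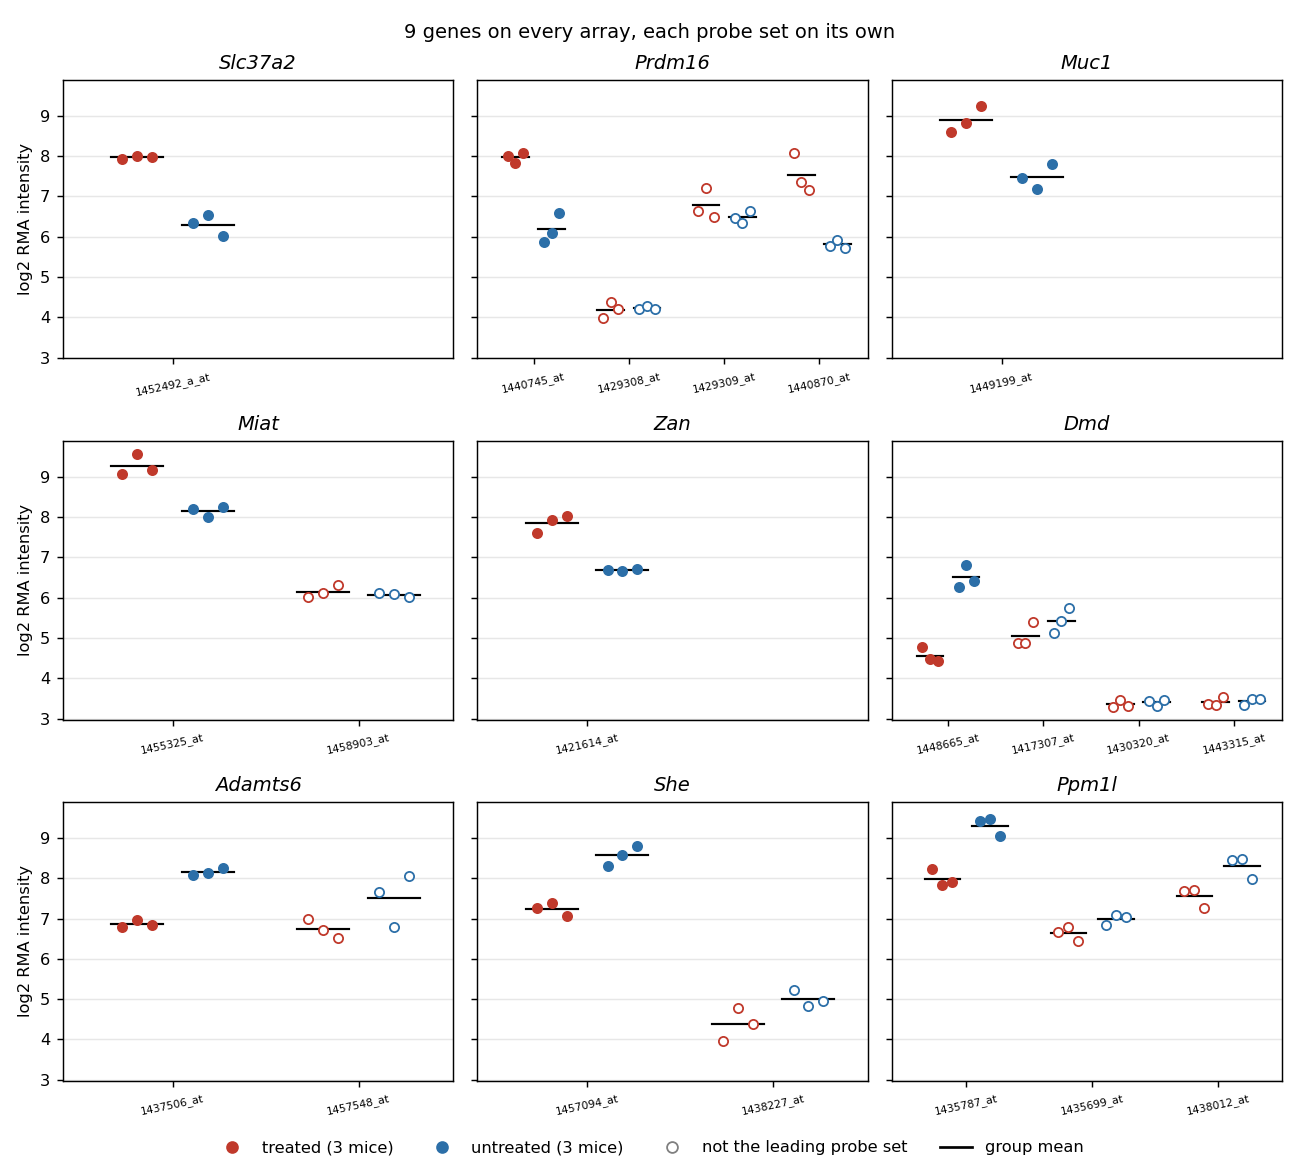
Log2 RMA intensity (vertical axis) of each probe set of the 9 genes on the 3 treated (red) and 3 untreated (blue) arrays, with black bars for group means, filled points for the leading probe set and hollow points for the others. The leading probe sets separate the groups in every panel, while the hollow points of Miat and Adamts6, of 3 Dmd probe sets and of 2 Prdm16 probe sets overlap between groups.

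Among the nuclear regulators, Prdm16 was read by 4 probe sets that gave different pictures. The leading one, 1440745_at, measured 8.01, 7.83 and 8.07 in treated replicates 1 to 3, and 5.88, 6.09 and 6.58 in untreated replicates 1 to 3, the order used throughout. All treated values were above all untreated ones, with means of 7.97 ± 0.13 and 6.18 ± 0.36 (SD, n = 3 each), a 3.46-fold higher level in treated Tregs (difference +1.79, 95% interval 1.28 to 2.30, from the fit over all probe sets). This and the intervals that follow do not allow for the choice of the genes. A second probe set, 1440870_at, measured 8.09, 7.35 and 7.16 against 5.76, 5.93 and 5.73. It too kept the groups apart and differed by +1.73, with treated replicate 1 above the other two.

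The remaining Prdm16 probe sets did not separate the groups. Probe set 1429309_at measured 6.64, 7.22 and 6.49 in treated and 6.47, 6.35 and 6.62 in untreated Tregs, a difference of +0.30 that rested on treated replicate 2. Probe set 1429308_at was dim on every array, between 3.98 and 4.38 in treated and between 4.21 and 4.27 in untreated Tregs, and differed by −0.04. It was the only 1 of the 11 further probe sets with a sign opposite to its leading one. Averaging all 4 gave +0.94 in place of +1.79. The antisense neighbour Prdm16os was dim, at 3.63 ± 0.25 and 3.59 ± 0.07.

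The leading probe set of Miat, 1455325_at, measured 9.08, 9.57 and 9.17 in treated and 8.20, 8.01 and 8.25 in untreated Tregs. The groups were 0.83 apart at their nearest, with means of 9.27 ± 0.26 and 8.15 ± 0.12 and a 2.18-fold higher level in treated Tregs (difference +1.12, interval 0.68 to 1.57). The other Miat probe set, 1458903_at, stayed between 6.01 and 6.31 on all arrays, overlapped between groups and differed by +0.07. The mean of both differed by +0.60.

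Muc1 and Zan, products of the cell surface and the sperm head, were each read by 1 probe set, as was Slc37a2. Muc1 measured 8.59, 8.82 and 9.25 in treated and 7.46, 7.18 and 7.81 in untreated Tregs. The means were 8.89 ± 0.33 and 7.48 ± 0.32, a 2.65-fold higher level in treated Tregs (difference +1.41, interval 0.83 to 1.98). Its gap of 0.78 was the smallest of the 9, between treated replicate 1 and untreated replicate 3. The mean of 10 epithelial markers was 6.19, 6.76 and 7.39 in treated and 6.29, 6.36 and 6.70 in untreated replicates 1, 2 and 3, with 8 of the 10 above 0 in difference and Cdh1 below the array median on every array. Treated replicate 3 was the highest array in both Muc1 and that list. The groups overlapped in the list, while in Muc1 their separation was fixed by the choice of the gene. The part of epithelial transcripts in the Muc1 difference was not tested.

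Zan measured 7.61, 7.92 and 8.02 in treated Tregs. In untreated Tregs it measured 6.69, 6.65 and 6.70, the tightest group of any leading probe set with an SD of 0.03. Its treated mean was 7.85 ± 0.21 against 6.68, a 2.24-fold higher level (difference +1.17, interval 0.77 to 1.56). The untreated level was nearly constant, while its separation from every treated mouse was fixed by the choice of the gene. Whether the untreated Zan signal was above background was not tested.

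Adamts6 had close replicates in both groups. Its leading probe set, 1437506_at, measured 6.79, 6.95 and 6.84 in treated and 8.09, 8.14 and 8.25 in untreated Tregs. The SD was 0.08 in each group, and the level in treated Tregs was 2.45-fold lower (difference −1.29, interval −1.64 to −0.94). Probe set 1457548_at measured 6.99, 6.71 and 6.51 against 7.67, 6.79 and 8.05. There untreated replicate 2 lay below treated replicate 1, so the groups overlapped at a difference of −0.77, which was −0.50 without untreated replicate 3.

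Dmd was read by dim probe sets. Its leading probe set, 1448665_at, measured 4.78, 4.47 and 4.43 in treated and 6.27, 6.81 and 6.42 in untreated Tregs. The RMA values of treated Tregs were 3.85-fold lower (means 4.56 ± 0.19 and 6.50 ± 0.28, difference −1.94, interval −2.42 to −1.47). The nearest values of the groups were 1.49 apart. On the linear scale this was 21.5 to 27.5 against 77.3 to 112.4. The lower quartile of an array was 5.13 to 5.33 on the log2 scale, so the treated values lay below it and the untreated values above it. Whether the treated signal was above background was not tested, so the size of the fold is uncertain.

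The other Dmd probe sets did not separate the groups. Probe set 1417307_at, annotated to the same transcript record as the leading one, measured 4.87, 4.87 and 5.40 in treated and 5.13, 5.43 and 5.73 in untreated Tregs, a difference of −0.39. Probe sets 1430320_at and 1443315_at stayed between 3.29 and 3.53 on all arrays and differed by −0.05 and −0.02. With all 4 averaged the Dmd difference was −0.60. Of 12 skeletal muscle markers, 7 lay below the array median on every array, among them Ttn, Myh4 and Myog, and the mean of the list was 5.86 to 6.14 in treated and 5.78 to 5.99 in untreated Tregs.

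Of the genes that act inside the cell, Slc37a2 measured 7.92, 8.01 and 7.96 in treated and 6.34, 6.55 and 6.01 in untreated Tregs. The treated mice lay within 0.1 of each other, at 7.97 ± 0.05 against 6.30 ± 0.27, a 3.18-fold higher level (difference +1.67, interval 1.23 to 2.10). The macrophage, monocyte and dendritic cell list measured 9.45, 8.28 and 9.32 in treated and 8.95, 9.20 and 6.85 in untreated replicates 1, 2 and 3, with 21 of 24 genes above 0 in difference and none below the array median on every array. Untreated replicate 3 was lowest in both that list and Slc37a2. Treated replicate 2 was lowest among the treated in the list and highest in Slc37a2. Without untreated replicate 3, Slc37a2 differed by +1.52, and the list means of the remaining untreated mice lay between those of the treated mice. The neutrophil list measured 12.07, 10.66 and 11.54 in treated and 11.68, 11.25 and 6.53 in untreated replicates 1, 2 and 3. Of its 9 genes 8 were above 0 in difference, with a median of +2.02. The part of macrophage and neutrophil transcripts in the Slc37a2 difference was not tested.

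Ppm1l was lower in treated Tregs on each of its 3 probe sets, and none of them overlapped. The leading one, 1435787_at, measured 8.22, 7.84 and 7.90 in treated and 9.41, 9.46 and 9.04 in untreated Tregs. The level in treated Tregs was 2.49-fold lower (means 7.99 ± 0.20 and 9.30 ± 0.23, difference −1.32, interval −1.77 to −0.86). Probe set 1438012_at measured 7.67, 7.71 and 7.27 against 8.45, 8.47 and 7.98, a difference of −0.75. Probe set 1435699_at measured 6.66, 6.80 and 6.43 against 6.84, 7.09 and 7.04, a difference of −0.36 with a gap of 0.04. Of the 6 genes with several probe sets, Ppm1l and She were those whose probe sets all kept the groups apart.

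She was read by a bright and a dim probe set. The leading one, 1457094_at, measured 7.25, 7.39 and 7.05 in treated and 8.31, 8.58 and 8.80 in untreated Tregs. Treated Tregs were 2.52-fold lower (means 7.23 ± 0.17 and 8.56 ± 0.24, difference −1.33, interval −1.78 to −0.89). Probe set 1438227_at measured 3.97, 4.79 and 4.38 against 5.23, 4.84 and 4.96, a difference of −0.63 with a gap of 0.05 near the bottom of the range. Of 18 stromal and endothelial markers, cell types in which She is known, 9 lay below the array median on every array, among them Cdh5, Tek, Tie1 and Emcn. The mean of that list was 5.92 to 6.10 in treated and 5.81 to 5.90 in untreated Tregs, with 16 of 18 genes above 0 in difference. The part of such transcripts in the She difference was not tested.

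**Figure D3:**
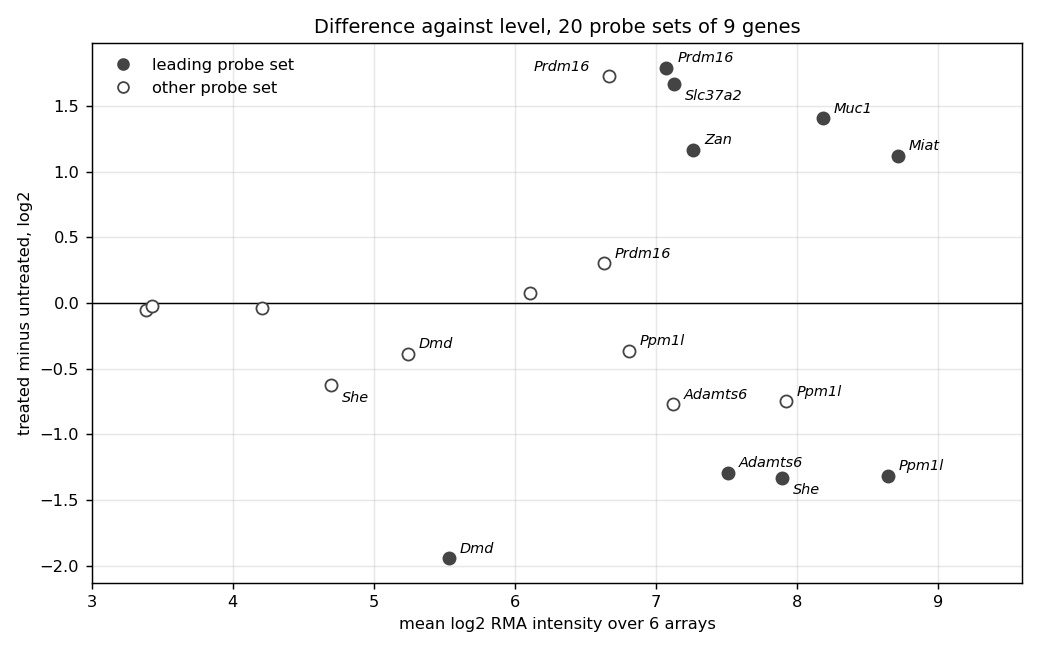
Difference between treated and untreated means (vertical axis, log2) against the mean level over the 6 arrays (horizontal axis, log2 RMA intensity) for all 20 probe sets, with filled points for the leading ones. The 3 dimmest probe sets, 1 of Prdm16 and 2 of Dmd, lie within 0.1 of 0, while the leading Dmd probe set lies at −1.94 despite its low level.

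The arrays within a group did not order the genes alike. In untreated replicate 3, with its low B cell, neutrophil and macrophage lists, Adamts6 and She had their highest untreated values, Ppm1l its lowest and Dmd a middle one. Of the higher genes, Prdm16, Muc1, Miat and Zan had their highest untreated value in that mouse and Slc37a2 its lowest. Without untreated replicate 3 the differences of the leading probe sets were +1.99 for Prdm16, +1.17 for Miat, +1.57 for Muc1, +1.18 for Zan, −1.25 for Adamts6, −1.98 for Dmd, +1.52 for Slc37a2, −1.45 for Ppm1l and −1.22 for She. Since the groups did not overlap, leaving out an array could not turn a sign.

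**Figure D4:**
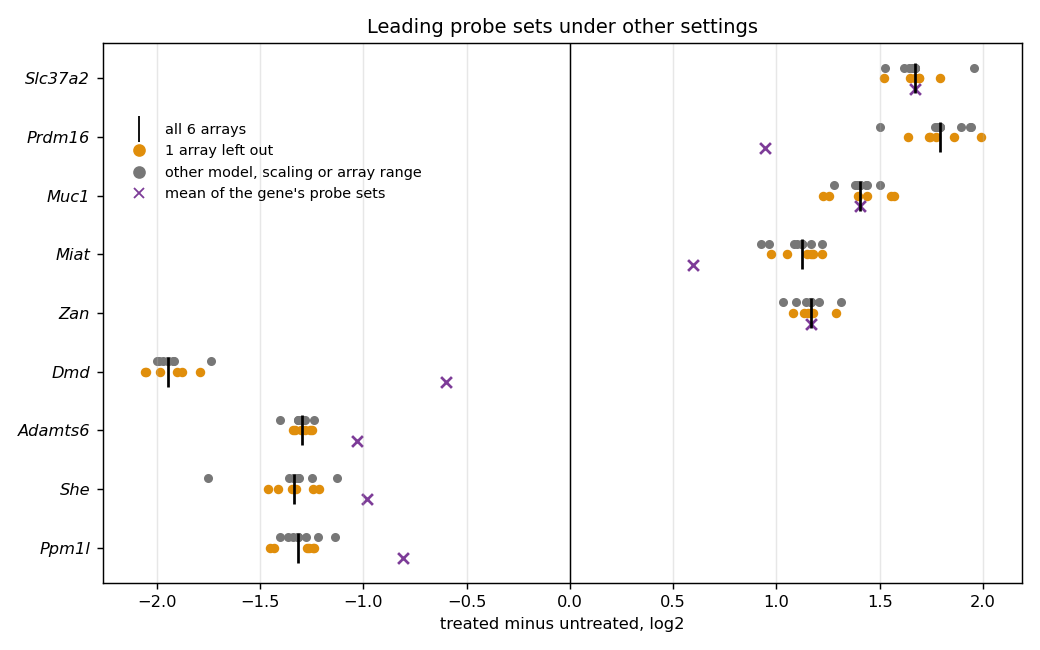
Difference between treated and untreated Tregs (horizontal axis, log2) for the leading probe set of each gene with all 6 arrays (black bar), with 1 array left out (orange), under other models, scalings or array ranges (grey), and for the mean of all probe sets of the gene (cross). The side of 0 was fixed by the choice of the genes, and the crosses of Prdm16, Miat, Dmd and Ppm1l lie nearest to 0 relative to their bars.

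Related genes, taken from 9 lists of families and partners, were not used in choosing the 9 and were tested in the same fit. Of 227 genes measured by 493 probe sets, 0 were called higher and 0 lower (limma, adjusted p of 0.05, against 0% of all probe sets). Without adjustment, p was under 0.05 for 11 higher and 18 lower probe sets, 5.88% against 4.52% of all. The median difference over these probe sets was +0.06, beside +0.05 over all. The values of the 2 genes with the smallest p in each list follow, and all had limma adjusted p values of 0.882 or 0.961.

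Among PRDM family genes and PRDM16 partners (29 genes, median +0.05, 1 higher and 1 lower probe set at an unadjusted p under 0.05), Pparg, the master regulator of fat cells, measured 7.21, 7.79 and 7.18 in treated and 6.26, 6.99 and 6.44 in untreated Tregs, a difference of +0.83. The histone deacetylase gene Hdac2 differed by −0.95 on 1 probe set and by −0.27 and −0.68 on the others. Among long noncoding RNAs and MIAT binders (28 genes, median −0.03, 3 higher and 5 lower), the splicing factor gene Srsf1 measured 6.77 ± 0.35 against 7.84 ± 0.04 on the probe set with the smallest p, a difference of −1.07, and all 7 of its probe sets were below 0. The noncoding RNA Malat1 differed by +0.82 on 1 probe set, with 4 of 7 above 0 and 3 below. Over this list 47 probe sets were above 0 and 50 below.

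Among mucins and MUC1 partners (23 genes, median +0.14, 1 higher and 3 lower), Lgals3, which encodes the sugar-binding galectin-3, measured 11.69, 10.95 and 12.09 in treated and 10.84, 9.84 and 10.58 in untreated Tregs, a difference of +1.16. Galnt1, which starts O-linked sugar chains, differed by −0.65 on 1 probe set and by −0.25 on the other. Among genes of sperm and egg recognition (22 genes, median +0.04, 0 higher and 0 lower), the genes with the smallest p were Acr at 6.10 ± 0.32 against 5.71 ± 0.09 and Tecta, a gene of the zona pellucida domain family, at 4.60 ± 0.21 against 4.93 ± 0.18.

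Among ADAMTS family genes and inhibitors (28 genes, median +0.14, 2 higher and 1 lower), the metalloprotease inhibitor gene Timp2 measured 10.65 ± 0.14 against 9.81 ± 0.27 on 1 probe set. That was a difference of +0.83, while its other probe sets lay between −0.01 and +0.52. The sheddase gene Adam10 differed by −1.63 on 1 probe set, while its other 3 lay between −0.13 and +0.13. Among genes of the dystrophin complex (27 genes, median +0.06, 0 higher and 2 lower), the protease gene Capn3 measured 6.13 ± 0.23 against 7.33 ± 0.65 on 1 probe set. Its other probe set differed by −0.38. Sspn, encoding the complex member sarcospan, measured 3.56, 4.12 and 3.84 in treated and 6.39, 6.01 and 4.04 in untreated Tregs, so that untreated replicate 3 lay among the treated mice. Its 6.39, 6.01 and 4.04 in untreated mice ran beside B cell list means of 9.69, 9.59 and 7.27, and the part of B cell transcripts was not tested. Without that mouse Sspn was the only related probe set called (limma adjusted p = 0.0397, difference −2.36). Its other probe set differed by +0.16 with all 6 arrays.

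Among SLC37 family and glucose-6-phosphate genes (12 genes, median +0.20, 1 higher and 0 lower), H6pd, which encodes the glucose-6-phosphate dehydrogenase of the endoplasmic reticulum, measured 9.05, 9.14 and 9.08 in treated and 8.50, 8.63 and 8.24 in untreated Tregs, a difference of +0.63 without overlap. The hexokinase gene Hk3 differed by +0.49, with overlapping groups. Among PP2C phosphatases and PPM1L targets (24 genes, median −0.05, 0 higher and 3 lower), Ppm1a differed by −1.31 on 1 probe set, and 7 of its 8 probe sets were below 0. Ppm1k, a mitochondrial relative, differed by −0.57 and −0.83. Among SH2 adaptors (35 genes, median +0.07, 3 higher and 3 lower), Nck1 differed by −0.83 on 1 probe set and by −0.14 and −0.04 on the others. The adaptor gene Sla2 differed by +0.70 and +0.61. The lowest value of the list, −2.00, belonged to the B cell adaptor gene Blnk, which was named after its value was seen.

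**Figure D5:**
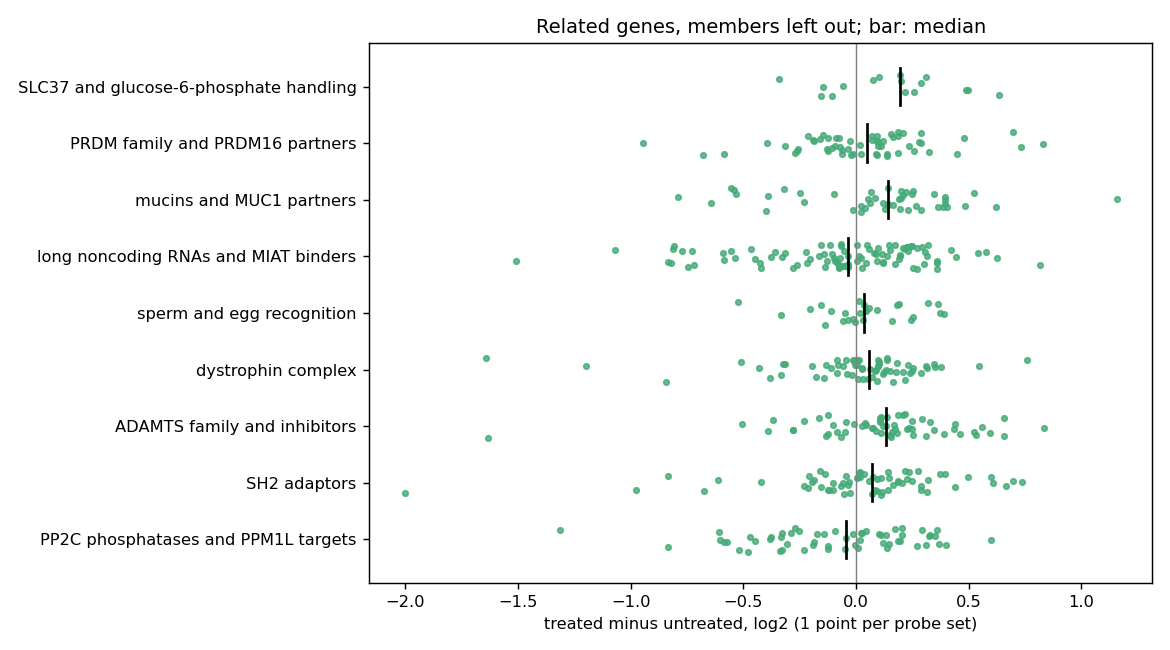
Difference between treated and untreated Tregs (horizontal axis, log2) for every probe set of the related genes, 1 row per list, with a black bar at the median of each list. The medians lie between −0.05 and +0.20 and single probe sets reach −2.00 and +1.16.

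Genes that lie next to the 9 on the chromosome were examined up to 3 on each side. None of 85 probe sets of 54 neighbouring genes was called (limma, adjusted p of 0.05), and 5 had an unadjusted p under 0.05, which is 5.88% beside 4.52% of all probe sets. Of these, 3 lay beside Zan and differed upward, as Zan did: Trip6 by +0.58, Slc12a9 by +0.47 and Gigyf1 by +0.48, with a median of +0.47 over the 7 probe sets around Zan. The other two belonged to Srek1ip1 beside Adamts6, at −1.10 and −0.70, where the 11 probe sets had a median of −0.31. The limma adjusted p was 0.961 for all 5. The count of 5 was 1 without untreated replicate 2, 2 without untreated replicate 1 or treated replicate 2, and 7 without treated replicate 3. Around Muc1, She, Slc37a2, Prdm16, Miat, Dmd and Ppm1l there were 0 at an unadjusted p under 0.05, and the medians ran from −0.04 to +0.20.

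The genes with the most similar profiles were found by Pearson correlation of log2 values over the 6 arrays, among 11086 probe sets whose values spanned at least 1 log2 unit. The 6 points share the group difference by which the 9 genes were chosen, so the coefficients are a description. Adamts6 was most like Gpr83 (r = 0.995) and Brca1 (0.991). Dmd was most like Rad51c (0.993) and Chek1 (0.990), Ppm1l like Rad54b (0.992) and Rragd (0.989), and She like Nupl1 (0.990) and Socs4 (0.987). Muc1 and Prdm16 shared Ogt as the most similar gene (0.992 and 0.970), followed by Adam8 (0.986) for Muc1 and Malat1 (0.966) for Prdm16. Slc37a2 was most like Il1r1 (0.982) and Cd160 (0.980), Miat like Boc (0.985) and Cotl1 (0.979), and Zan like Cbarp (0.984) and Amotl1 (0.975).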

How the data were processed

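Each of the 6 arrays (Affymetrix M430v2) held amplified RNA of 1 mouse. Per the series' design text and the submitters' processing notes, the authors ran RMA, and the deposited values are RMA intensity on a linear scale, from 5.47 to 29584.9, taken to log2 here without further scaling. No RMA version is named in the sources used here. RMA makes arrays alike, so a shift common to most transcripts cannot be seen. After 64 control probe sets were left out, 45037 were tested, of which 34945 had 1 symbol, 932 several and 9160 none. For 34741 of the 34945 the gene ID was found in RefSeq, and the RefSeq symbol was used.

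The linear model was that of limma 3.58.1 (R 4.3.3), with moderated variances over all probe sets, Benjamini-Hochberg adjustment and a threshold of 0.05, and the test was checked on simulated data. The p-values set the difference between groups against the moderated spread between mice, and the number of arrays limits precision. Named were all 9 genes with every probe set and up to 2 genes per related list by smallest p. Neighbours at an unadjusted p under 0.05 and up to 2 similar genes each were also named. Prdm16os was named outside these rules, as the antisense neighbour of Prdm16, at an unadjusted limma p of 0.82. The genes, lists and rules were chosen with earlier results of these data known. Marker lists used 1 probe set per gene, that with the highest mean. Alternatives were a replicate block, age, array number, quantile normalization, median centring, a dim filter at 100, eBayes with trend, array weights, gene summaries, left-out arrays and an adjusted p of 0.1. Plots used Python 3.11.15 and matplotlib 3.10.9.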

Additional observations from a re-analysis of the deposited data

How the results depend on the processing

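Over all probe sets, 0 were called under each alternative except array weights, which gave 1 higher and 4 lower, and leaving out arrays, which gave 0 to 2 higher and 0 to 57 lower. The upper ends came without untreated replicate 3. Of those 57 lower probe sets, 13 belonged to the B or plasma cell lists and 7 to antibody genes. A further 25 had other symbols and 12 had no single symbol. Among the 25 were Cd40 and Tnfrsf13c, B cell genes outside the lists, and Fcmr, which the B cell list held under its older symbol Faim3. Others of the 25 were Rasgrp3, H2-Ob, H2-DMb2, Gpr83 and Ikzf4. The list counts are thus a lower bound for the B cell transcripts among the 57. The 4 lower with array weights were Ikzf4, Gpr83, Ccr7 and Brca1, and the higher 1 had no single symbol. Probe sets of related genes called ranged from 0 to 1 with an array left out, and the 1 was Sspn; none of the neighbours was called under any alternative. With the replicate number as a block, 0 probe sets were called higher and 0 lower, with 1159 and 1860 at an unadjusted p under 0.05. Without the block these unadjusted counts were 687 and 1350. Same-numbered mice deviated together at r = 0.451, 0.083 and 0.088, and differently numbered ones at r from −0.377 to 0.166. Same-numbered mice also had adjacent array numbers. The labels do not say whether these mice were paired, and so few r values cannot decide it. The main fit took the mice as unpaired, and the block is given as the alternative. Averaging all probe sets took Ppm1l from −1.32 to −0.81, Prdm16 from +1.79 to +0.94, Miat from +1.12 to +0.60 and Dmd from −1.94 to −0.60. Within the last 2 array numbers, 1 mouse per group, She differed by −1.75 and Slc37a2 by +1.96. Levels near the bottom of the range limit the Dmd values, which the filter on dim probe sets removes.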
